A study of Taeniopygia guttata with 2 samples.

Results

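NANOG, SOX3, PRDM14 and TFAP2C are 4 of the 20511 genes in the count table, and they were taken because they are the pluripotency genes that the study follows in the germ line of the zebra finch. NANOG has no symbol in the files and is the entry ENSTGUG00000013121, SOX3 is ENSTGUG00000006268, PRDM14 is ENSTGUG00000011457 and TFAP2C is ENSTGUG00000008378. The cells came from the embryonic gonad at Hamburger Hamilton stage 28 of female and male zebra finch embryos, and the gonads of 7 embryos of a sex were pooled into 1 library. With 1 library per sex, a difference between the sexes has no replicate to be set against, and intervals on levels and shares cover counting error only. The female library held 98701138 UMIs (distinct RNA molecules) and the male library 124217899. Cells were the barcodes with at least 5000 UMIs, 6900 female and 8422 male ones, and 17 of these barcode sequences occurred in both libraries. Barcodes that end in 2 were taken as female and those that end in 1 as male, which the labels of the samples do not state. DMRT1, a gene of the sex-determining pathway on the bird Z chromosome, was at 36.1 UMIs per 1000000 UMIs of the class (CPM) in the somatic cells taken as female and at 144 CPM in those taken as male.

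Germ cells were cells with at least 5 UMIs of DND1, an RNA-binding protein of the vertebrate germ line. The gate gave 399 female germ cells (median depth 19942 UMIs) and 578 male ones (17629.5 UMIs). Germ cells with little RNA are left out by it, and with cells of at least 2000 UMIs it gave 441 and 658. The study, with a lower limit on cells, counted more germ cells in these libraries. Shares of germ cells given below are therefore shares of the cells that pass the gate, not of all germ cells. Somatic cells had at most 1 UMI of DND1, and there were 6434 female ones (median depth 9306.5 UMIs) and 7663 male ones (9244 UMIs). The other 67 female and 181 male cells, with 2 to 4 UMIs of DND1, belonged to neither class. DAZL, an RNA-binding protein of germ cells that was not used for the gate, had a UMI in 99.5% and 98.4% of female and male germ cells, and in 2.86% and 5.30% of somatic cells.

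Primordial germ cells are the embryonic precursors of eggs and sperm, and on their way to the gonad they keep transcription factors that are otherwise known from pluripotent cells of the early embryo. NANOG is a homeobox factor of pluripotent cells, and SOX3 is an SRY-related factor of the group that also holds SOX2. PRDM14 is a PR-domain factor that represses differentiation genes, and TFAP2C is an AP-2 factor. Both of these are known from the mouse as factors that germ cell precursors need for their specification.

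All 4 genes were higher in germ cells than in somatic cells in both libraries. NANOG was at 352 and 289 CPM in female and male germ cells, and at 3.32 and 3.96 CPM in the somatic cells. SOX3 was at 228 and 210 CPM in germ cells and at 0.803 and 1.89 CPM in somatic cells. PRDM14 was at 18.6 and 18.1 CPM in germ cells, against 0.0149 and 0.151 CPM in somatic cells, from 1 UMI in all female and 12 UMIs in all male ones. TFAP2C was at 18.6 and 12.4 CPM in germ cells and at 0.788 and 0.617 CPM in somatic cells. For each gene the lower germ cell level lay above the higher somatic level, and the exact 95% Poisson intervals were far apart.

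The sums of both libraries were then tested with edgeR (quasi-likelihood, p adjusted after Benjamini and Hochberg over 14925 genes), with 2 sums a class. Of these genes 29.5% were higher in germ cells at an adjusted p of at most 0.05, and all 4 members were among them. In all 4410 genes were higher and 4710 lower, and with library size in place of edgeR's TMM scaling 5944 and 3420. PRDM14 had a log2 fold change of 7.34 (SE 0.67, adjusted p = 0.000872), which was rank 9 of all genes. SOX3 followed with 6.995 (SE 0.41, edgeR adjusted p = 0.000359) at rank 15 and NANOG with 6.12 (SE 0.16, edgeR adjusted p = 0.000183) at rank 57. TFAP2C had 4.12 (SE 0.34, edgeR adjusted p = 0.000666) and rank 278. The log2 ratio of PRDM14 was 9.71 for female cells alone and 6.85 for male cells alone, and the female somatic level behind it rests on 1 UMI.

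Within the germ cells NANOG and SOX3 were spread unevenly. To compare cells of different depth, each germ cell was thinned by drawing 5000 of its UMIs at random. After thinning, NANOG was detected in 36.6% of female germ cells (31.9% to 41.5%, exact 95% binomial interval) and in 34.8% of male ones (30.9% to 38.8%). The cells in which it was detected held a mean of 4.81 and 3.95 UMIs, up to 19 and 20 in a cell. The 25% of germ cells with the most NANOG carried 91.5% of its UMIs among female cells and 92.8% among male cells. The variance of NANOG over its mean was 6.09 and 5.16, where counts drawn from a single level would give about 1. Without thinning the shares were 47.9% and 45.7%, and the highest cells held 58 and 52 UMIs.

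SOX3 had a similar spread. It was detected in 37.8% of thinned female cells (33.1% to 42.8%) and 30.8% of male ones (27.1% to 34.7%), with up to 14 and 13 UMIs in a cell and a variance over mean of 3.63 and 3.96. PRDM14 was found in 7.02% of female cells (4.71% to 9.98%) and 7.96% of male ones (5.89% to 10.5%). TFAP2C was found in 7.02% (4.71% to 9.98%) and 6.40% (4.55% to 8.72%). The variance over mean was 0.999 and 1.33 for PRDM14 and 1.32 and 1.18 for TFAP2C. With thinned means of 0.0709 to 0.0969 UMIs per cell, a value near 1 does not show an even spread. Without thinning the values were 2.38 and 2.44 for PRDM14 and 2.47 and 1.70 for TFAP2C, where depth also differs between cells. Detected cells held a mean of 1.04 and 1.22 UMIs of PRDM14 and 1.25 and 1.11 of TFAP2C, so that for both genes a thinned cell with 0 UMIs may still hold the transcript. Without thinning SOX3 was in 56.9% and 51.0%, PRDM14 in 21.1% and 16.6% and TFAP2C in 19.8% and 15.4% of the germ cells. Thinned somatic cells had a UMI of NANOG in 1.66% and 1.94%, of SOX3 in 0.389% and 0.966%, of PRDM14 in 0.0155% and 0.104% and of TFAP2C in 0.280% and 0.183%. Every share in germ cells lay above its share in somatic cells of the same library.

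**Figure D1:**
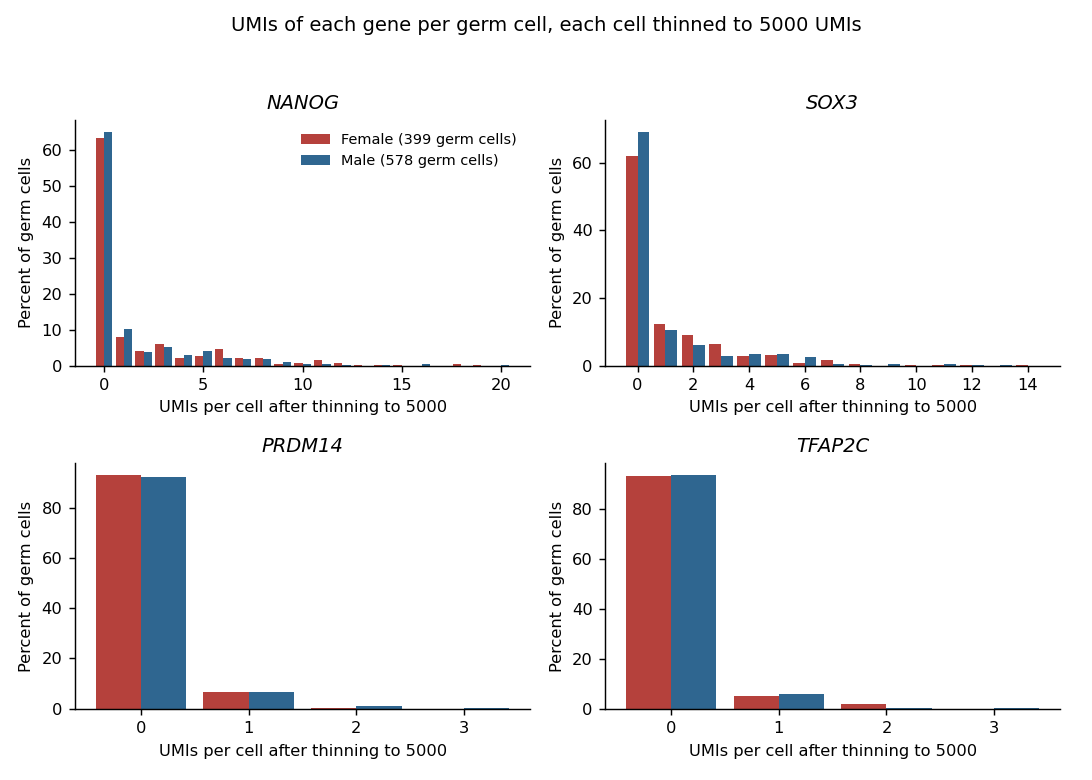
UMIs per germ cell (x axis) of NANOG, SOX3, PRDM14 and TFAP2C after each cell was thinned to 5000 UMIs, as a percentage of the 399 female and 578 male germ cells (y axis, bars from 0). Most cells sit at 0 for all 4 genes, and NANOG and SOX3 have a long tail, up to 20 and 14 UMIs, that PRDM14 and TFAP2C lack.

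The level of SOX3 was higher in the deepest than in the shallowest germ cells. The germ cells of a library were ordered by UMIs and cut into 4 classes of equal size. SOX3 was at 171 CPM in the shallowest female class and at 283 CPM in the deepest, and at 171 and 260 CPM in the male ones, with 180 and 149 CPM in the second class. NANOG was at 355 and 391 CPM in the shallowest and deepest female class and at 315 and 301 CPM in the male ones, with 303 and 273 CPM in the second class. PRDM14 was at 15.03 and 23.1 CPM in the shallowest and deepest female class and at 11.9 and 20.2 CPM in the male ones, with intervals that overlapped. The part of depth in the results on SOX3 was not tested beyond the thinning and the cut at the median depth given below.

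The 4 genes were found in the same cells more often than the product of their shares gives, and most of the cells with PRDM14 or TFAP2C also held NANOG. Of the thinned germ cells with PRDM14, 92.9% of female and 97.8% of male ones also held NANOG, which was found in 32.3% and 29.3% of the cells without PRDM14. The reverse did not hold, since PRDM14 was detected in 17.8% and 22.4% of the cells with NANOG. TFAP2C went with NANOG in 92.9% and 91.9% of its cells, against 32.3% and 30.9% of the cells without TFAP2C. These shares come from a single random draw and few cells with TFAP2C. The log2 odds ratio of NANOG and TFAP2C was 4.47 and 4.46 in this draw. With DND1 of at least 10 UMIs, where the cells and the draw differed, it was 3.18 and 2.40. With DND1 of at least 3 UMIs it was 3.67 and 3.44. SOX3 was detected in 78.8% and 72.6% of female and male cells with NANOG and in 14.2% and 8.49% of those without it. The study names these 4 genes together for 1 germ cell group of the same libraries, so their occurrence in the same cells is not independent evidence of that group.

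As numbers of cells, NANOG and SOX3 were found together in 115 female germ cells, where the product of their shares gives 55.3 cells, and in 146 male germ cells against 61.9. NANOG and PRDM14 shared 26 female cells against 10.2 and 45 male cells against 15.997. NANOG and TFAP2C shared 26 cells against 10.2 and 34 cells against 12.9. SOX3 shared 24 and 42 cells with PRDM14, against 10.6 and 14.2, and 26 and 28 cells with TFAP2C, against 10.6 and 11.4. PRDM14 and TFAP2C, which were both detected in few cells, met in 6 female cells against 1.965 and in 8 male cells against 2.94. In all 6 pairs and both libraries the shared cells outnumbered the product, by 2.08 to 3.05 times. Among the germ cells below and those above the median depth of their library the same ratio ran from 2.03 to 3.36.

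**Figure D2:**
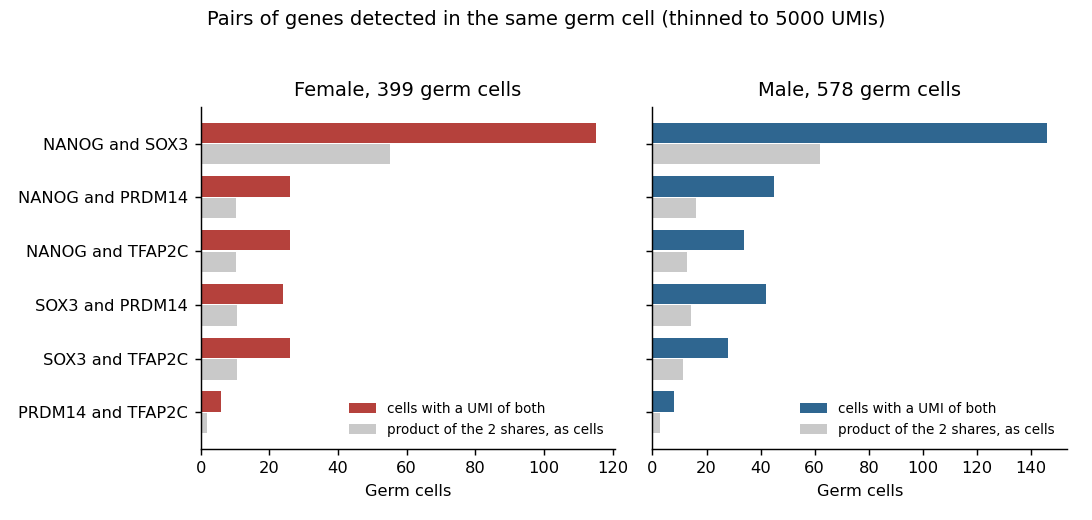
Number of germ cells (x axis, bars from 0) with a UMI of both genes of each of 6 pairs (y axis), beside the number that the product of their shares gives, in the 399 female and 578 male germ cells thinned to 5000 UMIs. The coloured bar is longer than the grey one for every pair in both libraries, from 6 against 1.965 cells to 146 against 61.9 cells.

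None of the 4 genes was detected in 215 female (53.9%) and 341 male (59.0%) thinned germ cells, where the product of the shares gives 136 and 225 cells. All 4 were found together in 6 female and 8 male cells, against 0.272 and 0.315. The most frequent combination was NANOG with SOX3 alone, in 73 female and 84 male cells. NANOG without the others was seen in 27 and 46 cells and SOX3 without the others in 34 and 32 cells. PRDM14 was the sole gene detected in 0 female cells and 1 male cell, and TFAP2C in 2 and 3 cells. The median depth was 19612 and 17256 UMIs for cells with none of the genes, and 23908.5 and 23543.5 UMIs for the few cells with all 4.

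**Figure D3:**
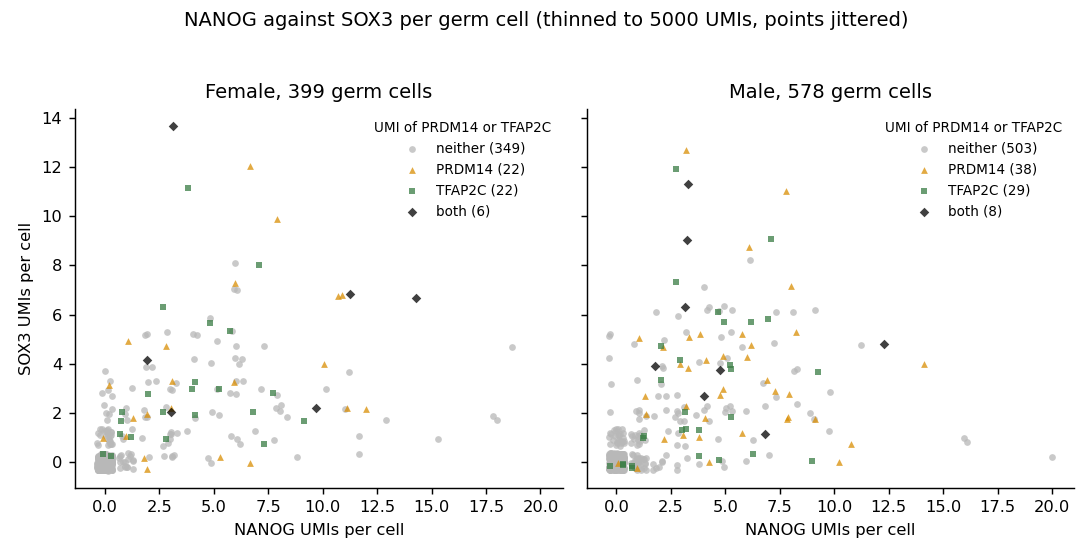
UMIs of NANOG (x axis) and SOX3 (y axis) in each germ cell thinned to 5000 UMIs, with a small random shift to separate the points, in the female (left) and male (right) library. Cells with a UMI of PRDM14, TFAP2C or both, which number 22, 22 and 6 (female) and 38, 29 and 8 (male), lie among the cells that hold NANOG or SOX3, except for 2 female and 4 male cells in the crowded corner at 0.

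Across germ cells, the log levels per 5000 UMIs of NANOG and SOX3 had a Pearson r of 0.86 (399 female cells) and 0.84 (578 male cells). For NANOG and PRDM14 it was 0.61 and 0.62, and for NANOG and TFAP2C 0.50 and 0.40. Cells of a library share its pool and its free RNA, so these values describe the libraries. Within the cells with at least 2 thinned UMIs of NANOG, the r of NANOG and SOX3 fell to 0.33 over 114 female cells and 0.18 over 142 male cells, and that of NANOG and TFAP2C was -0.03 and -0.05. Choosing cells by NANOG narrows the range of NANOG, which by itself can lower an r. The fall was therefore not taken as a change in how the genes go together. Within the cells with 0 thinned UMIs of NANOG, whose full counts still hold some, the r of NANOG and SOX3 was 0.53 and 0.54.

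The other 3 genes were far higher in germ cells with NANOG. NANOG-high cells had at least 2 UMIs of NANOG after thinning, and they made up 28.6% of female germ cells (114 cells, 24.2% to 33.3%) and 24.6% of male ones (142 cells, 21.1% to 28.3%). NANOG-low cells had 0 and numbered 253 and 377, with 32 and 59 cells in between at 1 UMI. The median depth was 20859 and 19541 UMIs in the high and low female class, and 18292.5 and 17437 UMIs in the male ones. NANOG itself, which made the split, was at 1077 and 1007 CPM in the high and at 18.3 and 20.2 CPM in the low class.

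SOX3 was at 605 and 656 CPM in female and male NANOG-high cells, and at 41.2 and 40.4 CPM in NANOG-low cells. PRDM14 was at 56.0 and 62.6 CPM against 1.61 and 1.72 CPM, the latter from 8 and 12 UMIs. TFAP2C was at 51.4 and 34.99 CPM against 2.21 and 2.87 CPM, from 11 and 20 UMIs in the low class. All 3 genes were higher in the high class of both libraries with no overlap of their intervals. The NANOG-low class was not free of NANOG. Without thinning, 208 female and 314 male germ cells had 0 UMIs of it, against 253 and 377 after thinning. SOX3, with a UMI in 14.2% and 8.49% of the thinned cells of this class, was still above its somatic level of 0.803 and 1.89 CPM there. It was also above the 0.216 and 0.756 CPM that free RNA was estimated to bring to germ cells, judged from their hemoglobin UMIs. This estimate was made over all germ cells with hemoglobin under 2% of their UMIs, not over the NANOG-low class. It may be too low, which was not tested. Its values for DND1 in somatic cells, where the gate allowed at most 1 UMI of DND1, are given below.

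**Figure D4:**
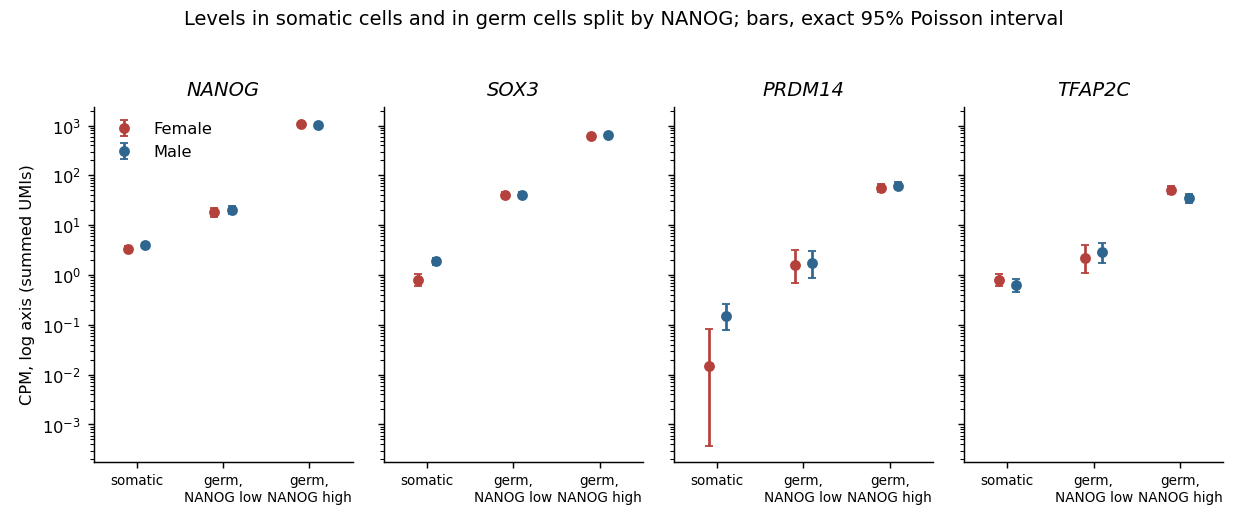
Level of each gene in CPM (y axis, log axis) in somatic cells and in germ cells with 0 (NANOG low) or at least 2 (NANOG high) thinned UMIs of NANOG, from summed UMIs of the female (red) and male (blue) library, with exact 95% Poisson intervals as bars. SOX3, PRDM14 and TFAP2C step up from somatic to NANOG-low and again to NANOG-high cells in both libraries, from 0.803 over 41.2 to 605 CPM for SOX3 in the female library. NANOG itself made the split, and some NANOG-low cells hold NANOG in their full counts.

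In the edgeR test of the 2 classes over 11339 genes, 19.0% of the genes were higher and 19.4% lower in NANOG-high cells, 2155 and 2202 in number. With library size alone, which moved the median log2 fold change of all genes from -0.01 to 0.25, the split was 3381 higher and 1321 lower. With the library as a block, since both sums of a library come from 1 pool, 3169 were higher and 3307 lower. PRDM14 had a log2 fold change of 4.88 (SE 0.23, edgeR adjusted p = 0.000833), rank 14 of all genes. TFAP2C had 3.80 (SE 0.31, edgeR adjusted p = 0.00125) at rank 53 and SOX3 had 3.70 (SE 0.12, edgeR adjusted p = 0.000389) at rank 58. These 3 genes stayed past the threshold in all 13 alternatives with a test. The study names the 4 genes together for 1 germ cell group of the same libraries, so these calls are no independent evidence. The alternatives draw on the same libraries and do not change this. The same holds for the members in the splits by SOX3, PRDM14 and TFAP2C.

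Splitting by SOX3 in the same way gave 102 female and 117 male SOX3-high cells and 248 and 400 SOX3-low cells. NANOG was at 933 and 928 CPM in the high and at 72.1 and 73.8 CPM in the low class, a log2 fold change of 3.45 (SE 0.10, edgeR adjusted p = 0.000107). PRDM14 was at 52.0 and 68.0 CPM against 3.92 and 2.18 CPM, and TFAP2C at 50.2 and 34.0 CPM against 2.68 and 4.90 CPM. Their log2 fold changes were 4.13 (SE 0.30, edgeR adjusted p = 0.000674) and 3.19 (SE 0.35, edgeR adjusted p = 0.00171). Of the 11234 genes tested, 18.8% were higher and 17.9% lower in SOX3-high cells, and with library size alone 3201 were higher and 1242 lower.

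The splits by PRDM14 and TFAP2C set cells with at least 1 thinned UMI against those with 0, and their low classes still held the gene. Of the 150 UMIs of PRDM14 in female germ cells 93 fell in the low class, and of the 150 of TFAP2C 79 did. PRDM14-high cells, 28 female and 46 male, had 969 and 973 CPM of NANOG against 305 and 228 CPM in the others, and 719 and 756 CPM of SOX3 against 190 and 162 CPM. TFAP2C was at 48.7 and 46.5 CPM against 16.3 and 9.36 CPM. The log2 fold changes were 1.71 for NANOG (SE 0.15, edgeR adjusted p = 0.00328), 1.91 for SOX3 (SE 0.12, edgeR adjusted p = 0.00204) and 1.74 for TFAP2C (SE 0.33, edgeR adjusted p = 0.0246). Of 11391 genes tested, 2.84% were higher and 5.22% lower. With library size alone 604 were higher and 355 lower, and with the library as a block 1497 and 1726. The call of TFAP2C was lost in 3 of 11 alternatives, with an adjusted p of up to 0.221.

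TFAP2C-high cells, 28 female and 37 male, had 776 and 823 CPM of NANOG against 318 and 251 CPM, 625 and 629 CPM of SOX3 against 196 and 180 CPM, and 48.6 and 51.2 CPM of PRDM14 against 16.2 and 15.7 CPM. The intervals of the 2 classes did not overlap for any of the 3 genes in either library. The log2 fold changes were 1.34 for NANOG (SE 0.14, edgeR adjusted p = 0.0311), 1.59 for SOX3 (SE 0.11, edgeR adjusted p = 0.0211) and 1.49 for PRDM14 (SE 0.21, edgeR adjusted p = 0.0421), where 0.218% of 11494 genes were higher and 0.887% lower. With library size alone the whole count changed from 25 higher and 102 lower to 6 and 5, and with the library as a block to 868 and 1211. These 3 calls did not hold in every alternative, since that of NANOG was lost in 4 of 11, that of SOX3 in 3 and that of PRDM14 in 6, with an adjusted p of up to 0.267.

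Between the sexes the levels in germ cells differed by less than 2-fold for each gene. PRDM14 had a male over female ratio of 0.972, with a 95% interval of 0.782 to 1.21 that holds 1. SOX3 had 0.924 (0.868 to 0.983), an interval that held 1 with DND1 of at least 10 UMIs and without the deepest 5% of germ cells, and NANOG 0.821 (0.780 to 0.864). TFAP2C had the lowest ratio, 0.665 (0.523 to 0.845). Among the NANOG-high cells alone the ratio of SOX3 was 1.08 (1.01 to 1.16), that of PRDM14 was 1.12 (0.887 to 1.41) and that of TFAP2C was 0.680 (0.515 to 0.896). The shares of NANOG-high cells, 28.6% and 24.6%, had overlapping intervals. The intervals of the ratios cover the counting of UMIs and not the spread between cells. Without thinning, the variance over mean per cell was 20.3 and 18.3 for NANOG and 12.1 and 13.8 for SOX3. A ratio interval without 1 thus does not by itself set the sexes apart. Sex and library cannot be told apart in these values.

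The cells just outside the germ cell gate also held NANOG and SOX3. Cells with 3 or 4 UMIs of DND1 had 593 CPM of NANOG (19 female cells) and 86.8 CPM (32 male cells). The male level came from 31 UMIs in 4 cells, with 25 of them in 1 cell. PRDM14 had 1 and 2 UMIs in these female and male cells, each in 1 cell, and TFAP2C had 6 and 1 UMIs. Cells just inside the gate, with 5 or 6 UMIs, had 1046 CPM (14 cells) and 801 CPM (10 cells). SOX3 was at 174 and 22.4 CPM outside and at 424 and 169 CPM inside the gate. All cells with 2 to 4 UMIs of DND1, of median depth 10526 and 10753 UMIs, had 195 and 29.3 CPM of NANOG.

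Among somatic cells, 19 clusters were drawn without the 4 genes and without germ line genes, numbered S1 to S19 from the largest. The levels in them are a description, and clusters were named from markers only where at least 3 were raised. TFAP2C stood apart in S16, a cluster of 104 female and 67 male neural crest and neuroendocrine-like cells led by CHGA, STMN2 and TH, which belong to neurons and hormone-secreting cells. It reached 23.5 CPM (16.8 to 31.9) in female and 36.9 CPM (25.8 to 51.0) in male cells of S16, while germ cells had 18.6 and 12.4 CPM. These intervals overlapped between S16 and germ cells among the female but not among the male cells. The germ cell levels are means over all germ cells of the gate. NANOG-high germ cells had 51.4 and 34.99 CPM of TFAP2C, with a UMI in 19.3% and 21.1% of the thinned cells. The next highest cluster had 4.03 CPM, from a single UMI, and thinned cells of S16 held a UMI in 8.65% and 13.4%. S16 thus carried 40 of the 53 female and 36 of the 49 male somatic UMIs of TFAP2C.

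Within S16 the level of TFAP2C was higher in the cells that held SOX10, a factor of neural crest and glial cells, than in those that held CHGA alone. This division of S16 was chosen after the values were seen. Cells with SOX10 and without CHGA had 35.6 CPM of TFAP2C (29 UMIs in 48 female cells, 23.9 to 51.2) and 63.5 CPM (32 UMIs in 34 male cells, 43.4 to 89.7). Cells with CHGA and without SOX10 had 12.2 CPM (9 UMIs, 44 cells, 5.58 to 23.2) and 2.24 CPM (1 UMI, 31 cells, 0.0567 to 12.5). The intervals of the 2 kinds of cell did not overlap in either library. SOX3 in S16 was at 7.04 CPM (12 UMIs, 3.64 to 12.3) in female and at 4.10 CPM (4 UMIs, 1.12 to 10.5) in male cells. Over all somatic cells SOX3 was at 0.803 and 1.89 CPM. NANOG in S16 had 4 and 2 UMIs and PRDM14 had 0 in both libraries, which allows up to 1.76 and 3.07 CPM at 3 UMIs.

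**Figure D5:**
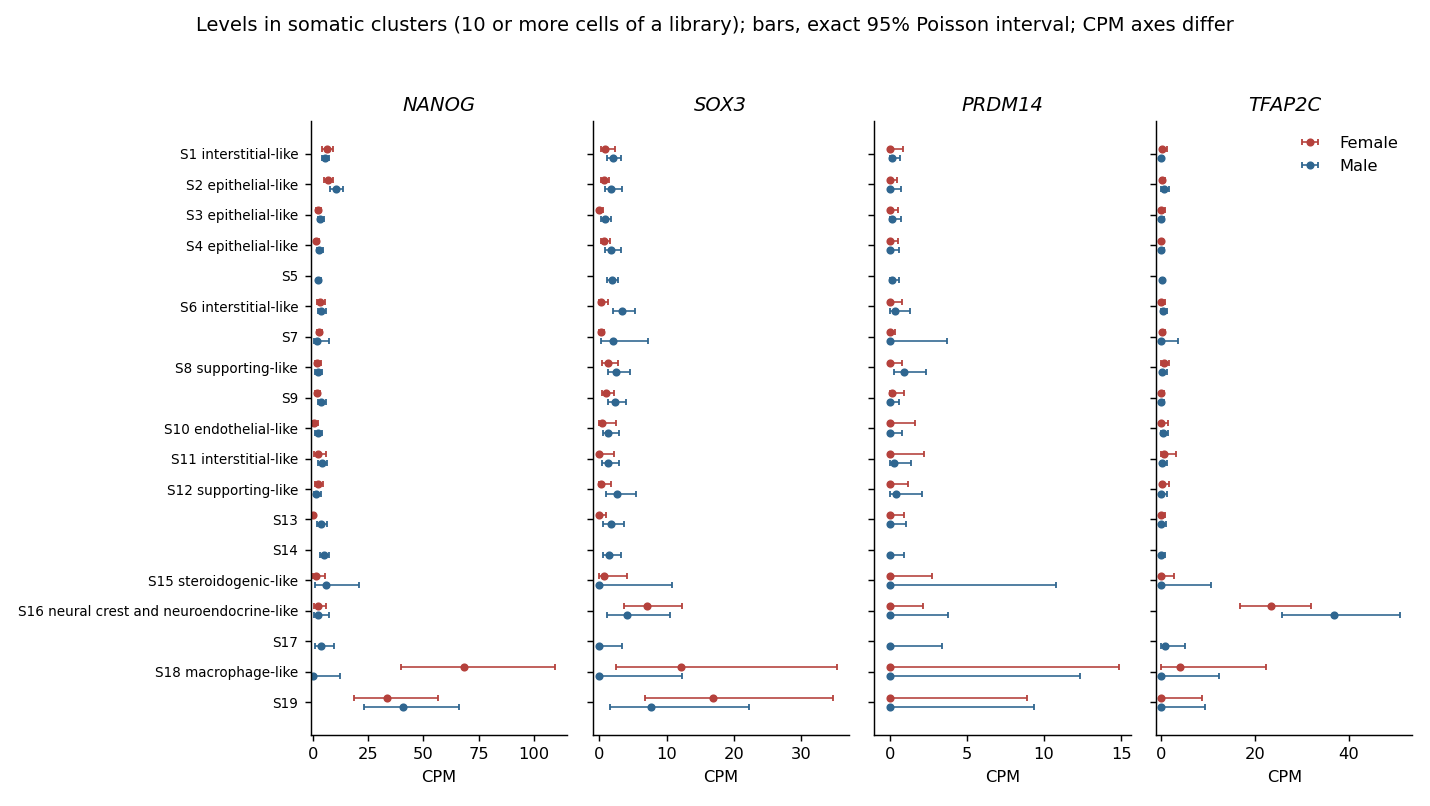
Levels of the 4 genes in CPM (x axes, which differ between panels) in the 19 somatic clusters (y axis), from UMIs summed over the female (red) and male (blue) cells, with exact 95% Poisson intervals as bars and clusters with fewer than 10 cells of a library left out. TFAP2C is highest in S16, at 23.5 and 36.9 CPM, NANOG is highest in the small clusters S18 (female) and S19, and PRDM14 is near 0 throughout.

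NANOG was low and spread over the somatic clusters. Of the clusters with over 100 cells in each library, S2, an epithelial-like cluster with raised EMX2, TNC and RIPK4, had the most, at 6.91 CPM (5.19 to 9.02) and 10.4 CPM (7.77 to 13.7), with a UMI in 4.03% and 5.11% of the thinned cells. S1, an interstitial-like cluster, followed with 6.36 and 5.35 CPM, and its interval overlapped that of S2 among female but not male cells. In free RNA NANOG stood at 31.2 and 37.7 CPM, and at the share estimated from hemoglobin, free RNA would bring 0.555 and 1.30 CPM to somatic cells. The same estimate for DND1 was 3.20 and 8.41 CPM, while DND1 stood at 6.42 and 15.1 CPM in these somatic cells. The gate itself limits DND1 to 1 UMI in each of these cells, so its level is not free of the gate. Whether the estimate is too low was not tested.

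S18, a macrophage-like cluster, had 68.5 CPM of NANOG in the female library, but all 17 UMIs were in 1 of its 28 cells, and its 33 male cells had 0. S19, a cluster of 36 cells led by hemoglobin genes and with the germ cell gene SMC1B among its 10 leading genes, had 33.7 and 40.7 CPM of NANOG, from 3 female and 3 male cells. Its PIWIL1, a piRNA pathway gene of the germ line, was at 22.2 CPM, and its median depth of 23525 UMIs was the highest of all clusters. Whether such barcodes hold more than 1 cell was not tested. SOX3 reached at most 16.8 CPM and PRDM14 at most 0.915 CPM in a cluster. The male over female ratio of SOX3 over all somatic cells was 2.35 (1.71 to 3.27), and its free RNA level was 33.3 CPM (male) against 19.8 CPM (female). At the share estimated from hemoglobin, free RNA would bring 1.15 CPM of SOX3 to male and 0.352 CPM to female somatic cells. In these cells, with hemoglobin under 2% of their UMIs, SOX3 stood at 1.91 (male) and 0.860 CPM (female). The part of free RNA in the ratio was not tested. Germ cell genes were also higher in male than in female somatic cells. DAZL was at 5.52 against 3.30 CPM, PIWIL1 at 4.82 against 2.62 CPM and SMC1B at 4.62 against 1.98 CPM. A higher male level was thus not particular to SOX3.

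The 10 genes whose pattern across germ cells was most like that of a member were the same for NANOG and SOX3, apart from NANOG and SOX3 themselves. Those of PRDM14 and TFAP2C overlapped with them only in part. Likeness was ranked over 9542 genes, each with a UMI in at least 10% of the germ cells of both libraries. The rank followed the lower of the 2 libraries' Pearson r over the 399 and 578 cells. GFRA1, a receptor subunit for GDNF that is known from spermatogonial stem cells of the mouse, MAP2, a microtubule protein, and TIPARP, an ADP-ribosyltransferase, were among the 10 closest genes of every member. NANOG ran closest to SOX3, then to GFRA1 (r 0.81 and 0.83) and TIPARP (0.81 and 0.77), while PRDM14 was at rank 26 and TFAP2C at rank 235. For SOX3, NANOG was first and TIPARP second (0.80 and 0.80). PRDM14 ran closest to TIPARP (0.62 and 0.61), with NANOG at rank 2 and SOX3 at rank 4. TFAP2C, with the lowest correlations, ran closest to NANOG and then SOX3 (0.52 and 0.40), and PRDM14 was at rank 35. Germ cells held a mean of 0.376 and 0.339 UMIs of PRDM14 and 0.376 and 0.232 of TFAP2C. For NANOG the means were 7.11 and 5.41, and for SOX3 4.60 and 3.94. Sparse counts by themselves can lower an r, so the low ranks of PRDM14 and TFAP2C need not mean less likeness. The tetraspanin CD9, the transcription factor TEAD4 and TRANK1 were near 3 of the members each.

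These genes were chosen for following the members in the same germ cells, so their levels in the split by NANOG are a description with no test. GFRA1 was at 321 and 322 CPM in female and male NANOG-high cells and at 27.9 and 25.6 CPM in the NANOG-low cells. TIPARP was at 357 and 322 CPM against 18.1 and 15.5 CPM. MAP2 was at 528 and 460 CPM against 119 and 101 CPM, and RUNX1, a transcription factor that was near TFAP2C, at 85.5 and 110 CPM against 5.83 and 4.44 CPM. For genes other than the members, CPM in this split leave NANOG itself out of the total.

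By the rule for the largest changes at 50 CPM or more, the gene MPZL2, an adhesion protein, rose most in NANOG-high cells, with 81.4 and 170 CPM against 0.804 and 3.72 CPM (log2 fold change 5.42, SE 0.57, edgeR adjusted p = 0.00187). PRDM14 came second, followed by 3 genes without a symbol, of which ENSTGUG00000019222 had a log2 fold change of 4.81. The largest falls were those of ENSTGUG00000025137, with a log2 fold change of -4.12, and of CDCA3, a gene of mitotic entry, with -3.91. CALCB, a calcitonin-related peptide, had -3.50, the kinetochore gene CENPH -3.39 and the mitotic kinase PLK1 -3.33.

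A list of partners of pluripotency genes, which also holds signalling genes such as FGFR3 and SKIL, had 24 genes in the table. Of these 22 were tested in the split by NANOG, and 8 were higher and 4 lower in the NANOG-high cells. Their median log2 fold change was 0.49, against -0.01 over all genes, where 19.0% of all genes were higher and 19.4% lower. The rise included PRDM1, a repressor that germ cell precursors of the mouse need, at 79.3 and 77.1 CPM against 14.1 and 15.5 CPM (2.14, SE 0.15, edgeR adjusted p = 0.0011). TFAP2A, the AP-2 relative of TFAP2C, was at 93.4 and 107 CPM against 34.8 and 35.7 CPM (1.25, SE 0.14). SALL1 rose by 2.37, TFCP2L1 by 1.997, CDH1 by 2.19, EPCAM by 0.89 and LIN28B by 0.89 on the log2 scale, and OTX2 was found at 5.39 and 5.90 CPM against 0 and 0.287 CPM. The genes that fell included FGFR3, an FGF receptor, at 107 and 161 CPM against 229 and 233 CPM (-1.04, SE 0.20, edgeR adjusted p = 0.00983), SKIL, a repressor of TGF-beta signals, and ETV5, an ETS factor. With library size alone 10 were higher and 3 lower. KLF4 (10.4 and 20.6 CPM against 7.03 and 10.5 CPM) and MYCN did not pass the test.

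The germ line list, of which 22 genes were tested, had 3 higher and 11 lower in NANOG-high cells (median log2 fold change -0.32), and with library size alone 5 and 6 (median -0.06). This list holds DND1, whose counts in these cells were limited to at least 5 UMIs by the germ cell gate. The lists hold genes that the study names from these libraries, so their counts are no independent evidence. TDRD9 and TDRD12, proteins of the piRNA pathway, rose by 1.10 and 0.85, while DAZL (-0.76), RBM46 (-1.07), BOLL (-0.94) and ELAVL4 (-0.72), which bind RNA, fell. DDX4, a germ line RNA helicase, was at 223 and 693 CPM against 156 and 540 CPM and did not pass the test. A list of migration and surface genes, which also holds transcription factors such as RUNX1, TEAD4 and EN1, had 13 genes tested. Of these 8 were higher and 3 lower (median 1.52), beside the same 19.0% and 19.4% of all genes. The same shares also stand beside the germ line and stress counts. GFRA1, CD9, RUNX1 and TEAD4 of this list were also among the genes closest to a member, so their part in the count is no independent evidence. KIT, the receptor for KIT ligand, was at 201 and 164 CPM against 39.4 and 29.2 CPM, and CXCR4, the receptor for the chemokine CXCL12 that guides germ cells, at 100.1 and 103 CPM against 47.6 and 30.9 CPM. EN1, a homeobox factor, was lower, at 17.9 and 15.1 CPM against 82.0 and 83.5 CPM.

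Genes of cell division were lower in the NANOG-high cells. In the split by NANOG 21 of 22 tested division genes fell, where 19.4% of all genes did, and 0 rose (median log2 fold change -1.99). TOP2A, which untangles chromosomes, was at 41.1 and 57.5 CPM in NANOG-high cells against 397 and 334 CPM in NANOG-low cells, and MKI67 at 107 and 146 CPM against 470 and 487 CPM. MCM2, a helicase subunit of DNA replication, did not pass the test, at 152 and 177 CPM against 127 and 147 CPM. In the splits by SOX3 and PRDM14, 20 and 17 of the 22 genes were lower, where 17.9% and 5.22% of all genes were, and 0 were higher. In the split by TFAP2C 1 of the 22 was lower, where 0.887% of all genes were. Their median log2 fold change in this split was -0.90, against 0.01 over all genes. With library size alone 0 of them were lower, where 5 of 11494 genes were. Of the 8 stress genes tested in the split by NANOG, 4 were lower, among them HSPA8 and EGR1, and 0 were higher (2 and 0 with library size alone).

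Markers of other cell types had UMIs in both classes of germ cells. The 6 supporting cell markers in the table summed to 168 and 291 CPM in NANOG-high and to 81.8 and 148 CPM in NANOG-low cells, and most of this was DMRT1, at 133 and 248 CPM against 57.3 and 110 CPM, while PAX2 had 0 and 1 UMI in the NANOG-high cells. The 2 hemoglobin genes were at 405 and 573 CPM in the high and at 342 and 2204 CPM in the low class. Of the 578 male germ cells, 576 had hemoglobin under 2% of their UMIs. The few male cells above this limit may carry much of the 2204 CPM, which need not describe the male low class as a whole. Over the 576 cells under the limit, of both classes and those between, the 2 genes stood at 2.27% of their free RNA level of 23417 CPM. The part of the cells above the limit in the male low class was not tested. The 4 macrophage markers summed to 60.1 and 54.1 CPM against 36.8 and 34.4 CPM, mostly SLC40A1, and CSF1R had 0 UMIs in the NANOG-high cells. The 5 epithelial markers were at 40.7 and 63.4 CPM against 47.4 and 46.4 CPM, the 4 interstitial ones at 34.4 and 109 CPM against 81.8 and 105 CPM, and the 4 endothelial ones at 5.39 and 9.95 CPM against 3.21 and 10.6 CPM. The 5 neural crest and neuroendocrine markers were at 41.1 and 26.2 CPM against 25.5 and 16.05 CPM, mostly TAGLN3 at 28.6 and 20.995 CPM against 9.44 and 10.9 CPM, with at most 1 UMI of SOX10 in a class. The 3 steroidogenic markers were at 26.5 and 32.4 CPM against 32.95 and 28.4 CPM, nearly all CYP17A1. The part of other cells in the differences between the classes was not tested.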

How the data were processed

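The authors deposited UMI counts per gene and barcode, from Cell Ranger 5.0.0 and the zebra finch assembly bTaeGut1_v1 with Ensembl genes, as all barcodes and with no normalization. Genome positions and sequences are not given here, since the reference at hand is of another build. The 4 genes and the gene lists were chosen with earlier results of these data known.

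Germ and somatic cells were taken by DND1 and summed per library and class. Sums were tested in R 4.3.3 with edgeR 4.0.16 (quasi-likelihood test after filterByExpr and TMM, Benjamini-Hochberg), leaving out the gene that made the classes. Gene names for DAZL, PIWIL1, BUB1, MKI67 and NANOG, which have no symbol in the files, are those of the study. With 1 sum per class and library, both sums of a library come from 1 pool of embryos, and their deviations from the class means went together (Pearson r 0.288 to 0.449 across genes, which are not replicates). A second fit therefore held the library as a block. The p-values measure the spread between the 2 libraries, of which 1 is of each sex. The scripts were tested on simulated sums without a library effect, for germ against somatic cells and for the split by NANOG. There edgeR recovered 24 and 29 of 100 genes changed 2-fold, and 97 and 98 of 100 changed 4-fold. A gene that did not pass a test may thus still differ by 2-fold. DESeq2 1.42.0 was an alternative.

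Thinning drew 5000 UMIs per cell, doublets were left in, and free RNA was taken from barcodes with at most 100 UMIs. Somatic cells were clustered with leidenalg 0.10.2 (resolution 0.8, 20 components, 2000 variable genes) under python 3.11.15 with numpy 2.4.6, scipy 1.17.1 and pandas 2.3.3. A cluster was named when at least 3 listed markers were raised 1.5-fold, more than of any other type, unless its 10 leading genes held markers of another type and none of its own. Intervals are exact 95% Poisson, binomial or conditional ratio intervals, and 0 UMIs were given a limit of 3 UMIs. Genes are named as members, as listed genes, as the 10 genes closest to a member, and as the 5 largest changes in each direction in the split by NANOG with an adjusted p of at most 0.05 and 50 CPM in both libraries. A promoter search was not run. Alternatives were other gates, depths, thinning, scalings, filters and resolutions and each library left out.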

Additional observations from a re-analysis of the deposited data

How the results depend on the processing

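In germ cells against somatic cells the 4 genes kept their direction and stayed past the threshold in all 12 alternatives with a test, as did SOX3, PRDM14 and TFAP2C in the split by NANOG and NANOG, PRDM14 and TFAP2C in the split by SOX3 in all 13. With a library left out, log2 ratios, which have no test and no TMM scaling, were 6.19 and 6.73 for NANOG, 6.80 and 8.14 for SOX3, 6.85 and 9.71 for PRDM14 and 4.32 and 4.56 for TFAP2C in germ against somatic cells. They were 3.87 and 4.02 for SOX3, 5.04 and 5.13 for PRDM14 and 3.58 and 4.48 for TFAP2C in the split by NANOG, and 3.65 and 3.69 for NANOG, 3.70 and 4.92 for PRDM14 and 2.78 and 4.18 for TFAP2C in the split by SOX3. In the split by PRDM14 they were 1.67 and 2.09 for NANOG, 1.92 and 2.22 for SOX3 and 1.60 and 2.32 for TFAP2C, and in the split by TFAP2C 1.29 and 1.72 for NANOG, 1.60 and 1.72 for PRDM14 and 1.68 and 1.80 for SOX3.

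In the split by TFAP2C, log2 fold changes that no longer passed the edgeR test were 0.95 for NANOG (adjusted p = 0.0731), 1.35 for PRDM14 (0.108) and 1.32 for SOX3 (0.0648) with DND1 of at least 10 UMIs, 1.43 for NANOG and 1.37 for PRDM14 with DND1 of at least 3 UMIs, 1.38 for NANOG, 1.32 for PRDM14 and 1.52 for SOX3 with cells of at least 2000 UMIs, and 1.22 for NANOG, 1.28 for PRDM14 and 1.29 for SOX3 with a gate on DAZL and PIWIL1. PRDM14 had 1.64 (adjusted p = 0.0565) with library size alone and 1.46 with counts of the thinned cells. In the split by PRDM14, TFAP2C had 1.04 with cells of at least 2000 UMIs, 1.27 without the 5% of germ cells with the most UMIs and 1.54 with counts of the thinned cells. The cause was not tested.

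The counts of genes past the threshold moved by over 1.5 times as follows. Counts of the thinned cells, which hold fewer UMIs, gave 1304 higher and 1368 lower in the split by NANOG, 1121 and 1168 by SOX3, 121 and 280 by PRDM14 and 10 and 63 by TFAP2C. Library size alone gave 3381 and 1321, 3201 and 1242, 604 and 355, and 6 and 5. The library as a replicate block gave 3307 lower by NANOG, 1497 and 1726 by PRDM14 and 868 and 1211 by TFAP2C, and ended the call of no member. DESeq2 gave 1303 higher by SOX3 and 90 and 211 by TFAP2C. Without a filter on low counts 804 and 1417 were past it by PRDM14 and 340 and 924 by TFAP2C. With cells of at least 2000 UMIs 1267 were higher by SOX3 and 107 and 257 changed by PRDM14. With cells of at least 10000 UMIs 144 were higher by PRDM14 and 65 and 254 changed by TFAP2C, and without the deepest 5% of germ cells 60 and 240. With DND1 of at least 10 UMIs 915 were lower by PRDM14. By TFAP2C, edgeR found 0 and 0 with DND1 of at least 10 UMIs, with cells of at least 2000 UMIs and with the gate on DAZL and PIWIL1, where 1959, 1503 and 1777 genes had an unadjusted p under 0.05 (DESeq2 was not run on these), and 1 and 2 with DND1 of at least 3 UMIs.

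Shares of germ cells with a UMI follow the depth by construction. Female and male shares were 47.9% and 45.7% for NANOG, 56.9% and 51.0% for SOX3, 21.1% and 16.6% for PRDM14 and 19.8% and 15.4% for TFAP2C in cells not thinned. At 2500 UMIs they were 31.3% and 27.7% for NANOG, 25.6% and 26.0% for SOX3 and 3.26% and 2.42% for TFAP2C, and 4.33% of male cells for PRDM14. With cells of at least 2000 UMIs, thinned to 2000, they were 27.2% and 25.8%, 26.5% and 21.7%, 2.72% and 2.74%, and 3.40% and 2.13%. With 2 UMIs as detected they were 28.6% and 24.6%, 25.6% and 20.2%, 0.251% and 1.38%, and 1.75% and 0.519%. In male cells of at least 10000 UMIs SOX3 had 35.2% and TFAP2C 4.31%, and without the deepest 5% PRDM14 had 5.65%. With 2 UMIs as detected the log2 odds ratio of SOX3 and PRDM14 in female cells was -0.0526, from 1 cell with PRDM14. Of 108 log2 odds ratios of a pair in the alternatives, 10 had a 95% interval that held 0, 5 of them for PRDM14 and TFAP2C. Among these were NANOG and TFAP2C in male cells, at 1.02 when thinned to 2500 UMIs against 4.46, and SOX3 and TFAP2C in male cells, at 1.08 with cells of at least 2000 UMIs against 2.96. At resolution 1.2 the highest somatic level of TFAP2C was 45.9 CPM. The interval of the male over female log2 ratio of SOX3 in germ cells held 0 with DND1 of at least 10 UMIs (-0.152 to 0.033) and without the deepest 5% of germ cells (-0.176 to 0.0136). The ratios ran from -0.34 to -0.22 for NANOG and from -0.67 to -0.52 for TFAP2C over the alternatives.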
